A study of Homo sapiens with 4 samples.

Results

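The genes described here copy DNA or carry the cell from the G1 to the S phase. They were taken by symbol as a set of 39, each of which was found once in both deposited tables, among 60612 genes listed in all. They cover the MCM2-7 ring (6 genes), the GINS complex (4), the RFC clamp loader (4), origin licensing and firing (6), nucleotide supply (5), polymerases, clamp and lagging strand (7), cyclin E and E2F (4) and chromatin assembly and DNA methylation upkeep (3).

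The mRNA of 4 cultures of 2 human hepatocellular carcinoma lines was sequenced, with 1 library per group, so the differences below have no replicate check and were not tested. The first pair was Huh-7, with an empty vector or with a lentiviral vector that stably overexpressed CCDC137, a coiled-coil domain protein. The other was PLC/PRF/5, with a control vector or with CCDC137 stably repressed by a guided inactive Cas9 fused to the KRAB repressor. Per the study's methods infected cells were selected with antibiotic, the CCDC137 vectors carry puromycin resistance, and Huh-7 and PLC/PRF/5 were grown in different media. The study used 2 guides, and which of them the knockdown library carried is not stated.

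Values are FPKM, the fragments of a gene per unit of transcript length and corrected for the number of fragments mapped. CCDC137 itself was at 11.9 (empty vector), 229.0 (overexpression), 20.5 (control) and 0.771 (knockdown) FPKM, as the labels would have it. Where a gene is given 4 values below, they stand in this order of libraries. FPKM summed to between 276444 and 289684 per library, and the number of reads is unknown, so no counting error could be set on a value. Of 10 hepatocyte markers, 10 reached 1 FPKM in both Huh-7 libraries and 9 in both PLC/PRF/5 libraries, where TTR stayed at or below 0.298. Their levels were far from equal, with sums of 2978.4, 3174.6, 1043.2 and 903.8 FPKM in the order above. ALB was at 1083.8, 1141.9, 2.15 and 1.94 FPKM. SERPINA1 alone of the 10 was higher in PLC/PRF/5, at 296.1, 281.4, 589.2 and 484.4 FPKM. Of 5 fibroblast markers LUM alone was expressed, in Huh-7. Of 7 blood or endothelial markers CD68 and LYZ were expressed in all 4 libraries and PECAM1 in Huh-7, with sums of 167.8 to 251.1 FPKM per library, while PTPRC and HBB were at 0. Each library came from a culture of 1 line, and why these fibroblast, blood or endothelial markers were expressed was not tested.

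DNA replication starts at origins. In G1 the origin recognition complex, CDC6 and CDT1 load the MCM2-7 ring onto DNA, which is called licensing. At the start of S phase CDC45 and GINS join the ring and turn it into the moving helicase. DNA polymerase alpha with primase then lays primers, RFC loads the sliding clamp PCNA, FEN1 and LIG1 process and seal the lagging strand, and ribonucleotide reductase supplies the nucleotides. Cyclin E and the E2F factors switch much of this gene set on, and in adult liver, where most hepatocytes rest, the set is largely silent.

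A feature of these genes that does not come from the libraries is their promoter sequence. Windows of 300 bases around the transcription start (250 before and 50 after it) were taken from RefSeq on GRCh38.p14 and were at hand for 34 of the 39 genes, in 46 windows. CCNE2, GINS4, MCM4, MCM5 and RPA3 had none. The 4 E2F words TTTGGCGC, TTTCCCGC, TTTCGCGC and TTTGCCGC were searched on both strands. At least 1 of them stood in a window of 19 of the 34 genes (55.9%), against 3.99% of 27305 genes with a window. CCAAT, the word bound by NF-Y, was found on either strand in 20 of the 34 (58.8%), against 39.7% of all genes, and 10 of the 34 (29.4%) held both, against 1.84%. E2F words on opposite strands can share bases with each other, and an E2F word can share an end base with a CCAAT. A match is a description of letters and not a shown binding site. The shares over all genes were not matched for base composition. Of the 6 genes past 1.2-fold in either treatment (described below), RRM2, TK1, RFC2 and PRIM1 had no E2F word in their windows, while DUT had a match in 1 of 4 windows and POLE2 in its 1 window. Of the genes short of 1.2-fold in both treatments, CCNE1, CDC45, CHAF1A, CHAF1B, FEN1, MCM10, ORC1, ORC6, RFC4, RFC5 and RRM1 had none either. Whether E2F words go with the differences was not tested.

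The 100 bases before the start are given for 7 genes, 4 because their values are used most below (RRM2, TK1, DUT, PRIM1) and 3 as promoters with E2F words in genes that stayed short of 1.2-fold in both treatments (MCM6, PCNA, E2F1). Capitals mark E2F words and CCAAT on either strand (ATTGG on the other strand). Each is written 5′ to 3′ on the strand of the gene. RRM2, TK1 and PCNA have 2 windows each and DUT has 4, of which 1 is shown. The stretches are chr2:10122639-10122738 on the plus strand (RRM2), chr17:78187053-78187152 on the minus strand (TK1), chr15:48332097-48332196 on the plus strand (DUT), chr12:56752324-56752423 on the minus strand (PRIM1), chr2:135876444-135876543 on the minus strand (MCM6), chr20:5126623-5126722 on the minus strand (PCNA) and chr20:33686386-33686485 on the minus strand (E2F1).
RRM2: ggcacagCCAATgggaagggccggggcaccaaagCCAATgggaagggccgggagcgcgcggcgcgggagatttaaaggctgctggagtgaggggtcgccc
TK1: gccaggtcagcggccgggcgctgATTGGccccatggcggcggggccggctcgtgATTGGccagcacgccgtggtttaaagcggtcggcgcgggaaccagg
DUT: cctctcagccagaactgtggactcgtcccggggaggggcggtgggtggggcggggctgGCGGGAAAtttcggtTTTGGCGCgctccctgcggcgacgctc
PRIM1: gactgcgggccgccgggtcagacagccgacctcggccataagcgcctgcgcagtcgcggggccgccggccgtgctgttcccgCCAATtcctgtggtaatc
MCM6: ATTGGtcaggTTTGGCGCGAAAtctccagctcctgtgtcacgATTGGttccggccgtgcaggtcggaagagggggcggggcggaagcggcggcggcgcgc
PCNA: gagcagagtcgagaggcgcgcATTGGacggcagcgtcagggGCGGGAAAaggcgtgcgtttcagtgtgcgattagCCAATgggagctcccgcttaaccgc
E2F1: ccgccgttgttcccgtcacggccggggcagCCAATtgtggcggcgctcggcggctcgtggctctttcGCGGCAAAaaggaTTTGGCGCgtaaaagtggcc

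All 39 genes were expressed, that is at 1 FPKM or more in at least 1 library of each comparison. CCNE2 was the lowest, at 0.931 FPKM in knockdown cells, and was the 1 value of the set below that minimum. The median of the set was 13.8 (empty vector), 15.9 (overexpression), 7.41 (control) and 8.04 (knockdown) FPKM. The median over all genes at 1 FPKM or more was between 5.63 and 5.87 in the 4 libraries. Together the set held 0.350% and 0.352% of the FPKM of the Huh-7 libraries, and 0.171% and 0.181% of the PLC/PRF/5 libraries. In bulk samples like these, fewer cells in S phase and less mRNA per cell cannot be told apart. Levels set across the lines also cross deposited tables, and whether these were normalized together is not stated. Line and culture medium cannot be told apart.

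**Figure D1:**
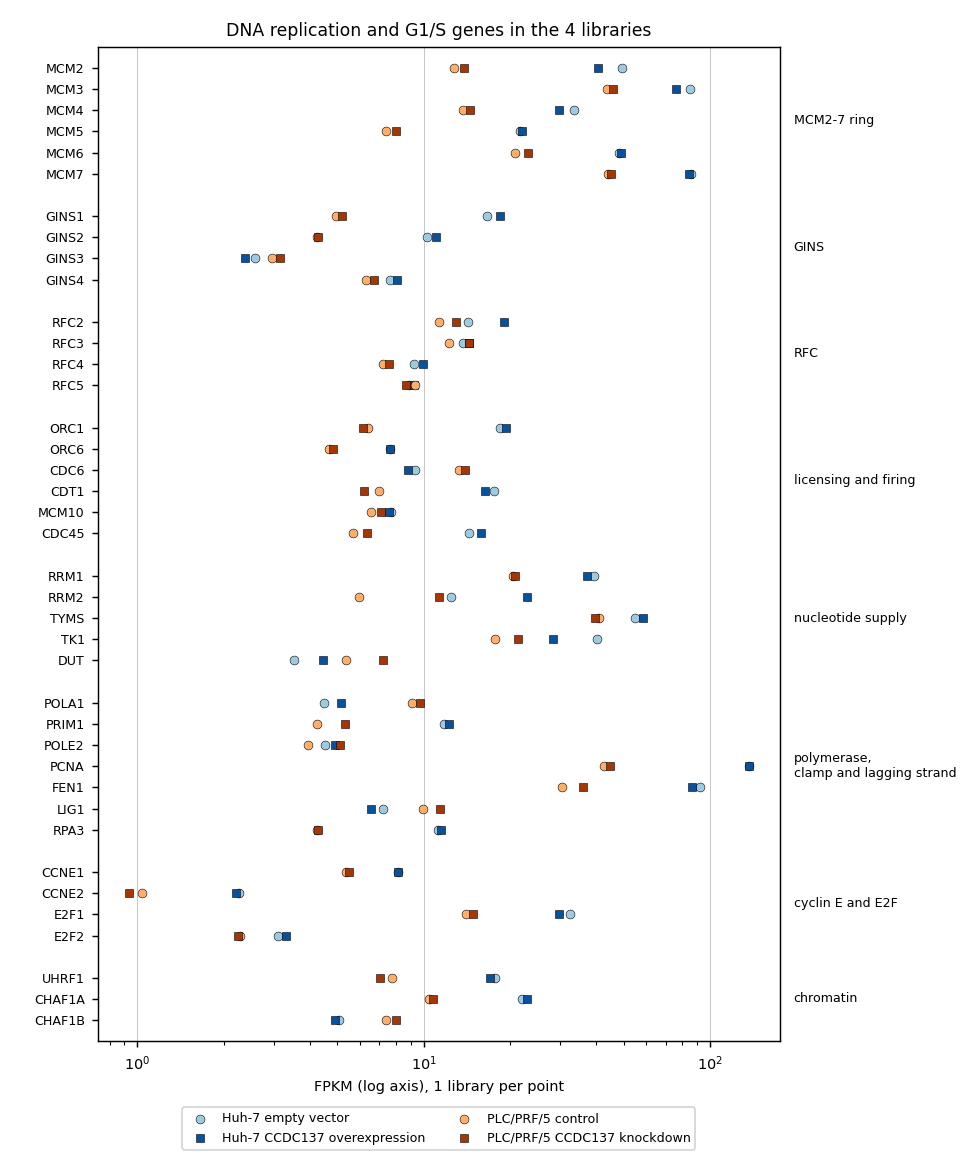
FPKM (log axis) of the 39 genes, grouped by role, with 1 point per library: circles are the control libraries, squares the treated ones, blue is Huh-7 and orange is PLC/PRF/5. For 30 genes both blue points lie to the right of both orange points, and within a line the circle and square mostly lie close together, with RRM2 as the widest pair on a ratio scale in both lines.

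The MCM2-7 ring holds 1 copy of each of 6 related proteins, yet their mRNAs were not at equal levels. MCM7 was at 85.9 (empty vector), 84.2 (overexpression), 43.9 (control) and 45.3 (knockdown) FPKM. MCM3 followed closely, at 84.9, 76.2, 43.5 and 45.8 FPKM, and passed it in the knockdown library. MCM5 was the lowest subunit in every library, at 21.8, 22.05, 7.41 and 7.99 FPKM, which put the highest subunit between 3.82 and 5.92 times above it. The other subunits lay between. MCM6 was at 48.2, 48.98, 20.8 and 23.2 FPKM, and MCM4 at 33.6, 29.6, 13.7 and 14.5. MCM2, the subunit that also binds histones, was at 49.1, 40.8, 12.8 and 13.9 FPKM. It stood above MCM6 and MCM4 in empty vector, between them in overexpressing cells and below both in the PLC/PRF/5 libraries.

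Summed over the ring, FPKM was 323.5 and 301.9 in Huh-7, and 142.1 and 150.6 in PLC/PRF/5. On overexpression 4 of 6 subunits were lower as deposited, against 46.4% of all expressed genes. When both libraries were rescaled to the same sum, 3 of 6 were lower. MCM2, MCM4 and MCM3 were at 0.83, 0.881 and 0.898 of the empty vector value. On knockdown all 6 were higher as deposited, against 47.8% of all expressed genes, and under both rescalings. The ratios as deposited ran from 1.03 (MCM7) to 1.11 (MCM6). MCM7 is also the host gene of the miR-106b, miR-93 and miR-25 hairpins, whose short RNAs this assay does not measure.

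GINS is a ring of 4 small subunits. GINS1 was at 16.6 (empty vector), 18.5 (overexpression), 4.95 (control) and 5.19 (knockdown) FPKM. GINS2 was at 10.3, 11.02, 4.25 and 4.29 FPKM. GINS4 was at 7.63, 8.10, 6.30 and 6.70 FPKM. GINS3 was the lowest subunit in every library and the 1 member of the complex that was higher in PLC/PRF/5, at 2.58, 2.38, 2.96 and 3.14 FPKM. GINS1 therefore stood 6.46 and 7.79 times above GINS3 in the Huh-7 libraries, but 1.67 and 1.65 times above it in the PLC/PRF/5 libraries. The sum of the complex differed by 7.62% on overexpression and 4.70% on knockdown, both higher.

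The small RFC subunits, which with RFC1 open the clamp and place it on DNA, were the most even group between the lines. RFC2 was at 14.3 (empty vector), 19.02 (overexpression), 11.3 (control) and 12.9 (knockdown) FPKM. It was past 1.2-fold on overexpression, with a ratio of 1.33. RFC3 was at 13.8, 14.4, 12.3 and 14.4 FPKM, RFC4 at 9.29, 9.92, 7.23 and 7.56, and RFC5 at 8.85, 9.24, 9.31 and 8.65. All 4 were higher on overexpression, against 53.6% of all expressed genes. On knockdown 3 of 4 were higher, against 47.8%, and RFC5 was the exception. The values of the lines overlapped for RFC3 and RFC5.

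Of the licensing and firing factors 5 of 6 were lower in PLC/PRF/5 than in Huh-7 controls, against 48.1% of all expressed genes. CDC6 was the exception. ORC1, the origin recognition subunit that cycles with G1, was at 18.5 (empty vector), 19.5 (overexpression), 6.37 (control) and 6.15 (knockdown) FPKM. ORC6, the smallest origin recognition subunit, was at 7.63, 7.61, 4.67 and 4.84 FPKM. CDT1, the licensing factor destroyed in S phase, was at 17.6, 16.3, 7.01 and 6.19 FPKM, lower in both treated libraries. CDC6, its partner in loading the ring, went the other way between the lines, at 9.30, 8.84, 13.3 and 13.9 FPKM. CDC6 was thus at 0.530 and 0.541 of the CDT1 level in Huh-7, and at 1.89 and 2.25 times it in PLC/PRF/5. CDC45, the helicase cofactor, was at 14.4, 15.9, 5.64 and 6.32 FPKM, and MCM10, which acts as the helicase is activated, at 7.66, 7.59, 6.57 and 7.07.

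Nucleotide supply held the largest differences of the set under both treatments. RRM2 (ENSG00000171848), the small subunit of ribonucleotide reductase whose level limits the enzyme in cycling cells, was at 12.5 (empty vector), 22.9 (overexpression), 5.93 (control) and 11.3 (knockdown) FPKM. Both treated libraries were higher than their own controls, by ratios of 1.84 and 1.91, and on the log2 scale with 1 FPKM added to each value the differences were both 0.83. RRM1, the large subunit with which it pairs, was at 39.5, 37.2, 20.5 and 20.9 FPKM. RRM2 was therefore at 0.316 and 0.616 of the RRM1 level in the Huh-7 pair, and at 0.289 and 0.542 of it in the PLC/PRF/5 pair.

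RRM2 was the 1 gene of the set past 1.5-fold in either comparison, and it was so in both, in the same direction although CCDC137 went in opposite directions. Of 12255 expressed genes 3.22% were 1.5-fold or more higher on overexpression, and of 12300 genes 3.08% were so on knockdown. None of the set was 1.5-fold lower, against 2.99% and 2.95%. Of the 10698 genes expressed in both lines 33 (0.308%) were 1.5-fold or more higher in both, and RRM2 was among them. None of the set was that much lower in both (0.355% of these genes) or in opposite directions (0.766%). In the GRCh37 annotation no other gene at 1 FPKM or more overlapped an exon of RRM2. RRM2 lies on chromosome 2.

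DUT, which removes dUTP so that uracil is not built into DNA, was also higher in both treated libraries. It was at 3.53 (empty vector), 4.44 (overexpression), 5.34 (control) and 7.22 (knockdown) FPKM, with ratios of 1.26 and 1.35. DUT and RRM2 were the 2 of 39 genes (5.13%) that were 1.2-fold or more higher in both comparisons, against 1.59% of the 10698 genes, but DUT only just passed on overexpression (a log2 difference of 0.264 where 0.263 is 1.2-fold).

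TK1, thymidine kinase of the salvage pathway, went in opposite directions. It was at 40.3 (empty vector), 28.2 (overexpression), 17.8 (control) and 21.3 (knockdown) FPKM, which gave ratios of 0.701 and 1.199. On the log2 scale with 1 FPKM added, the knockdown difference of TK1 was 0.25 and did not reach 1.2-fold. TYMS, the synthase that makes thymidylate anew, was the highest of the group in all 4 libraries, at 54.8, 58.1, 41.03 and 39.8 FPKM. With RRM2 higher and TK1 lower, the sum of the group was 150.6 and 150.9 FPKM in the Huh-7 libraries. In PLC/PRF/5 it was 90.5 and 100.5.

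**Figure D2:**
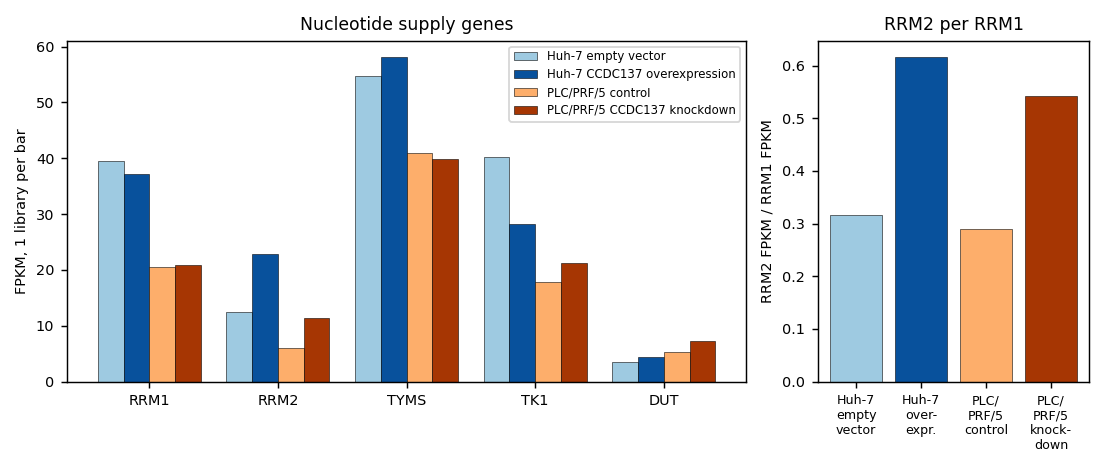
FPKM of the 5 nucleotide supply genes, with 1 bar per library (left), and the ratio of RRM2 to RRM1 FPKM in each library (right), with both axes from 0. RRM2 is at 12.5 and 22.9 FPKM in Huh-7 and 5.93 and 11.3 in PLC/PRF/5, TK1 is lower on overexpression and higher on knockdown, and the ratio of RRM2 to RRM1 is higher in both treated libraries than in their controls.

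Among polymerase, clamp and lagging strand genes PCNA was the most abundant of the whole set in both Huh-7 libraries. PCNA was at 136.8 (empty vector), 136.9 (overexpression), 42.6 (control) and 44.6 (knockdown) FPKM, and its difference on overexpression was the smallest of the 39 genes. FEN1, the flap nuclease that works on the clamp, was at 92.2, 86.6, 30.3 and 35.9 FPKM. LIG1, the ligase that seals the fragments, went the other way between the lines, at 7.23, 6.55, 9.98 and 11.4 FPKM. RPA3, the small subunit of the single-strand binding protein, was at 11.2, 11.5, 4.25 and 4.28 FPKM.

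The primase subunit PRIM1 and the polymerase alpha subunit POLA1, which work in 1 complex, differed in opposite directions between the lines. POLA1 was at 4.49 (empty vector), 5.14 (overexpression), 9.12 (control) and 9.74 (knockdown) FPKM. PRIM1 was at 11.7, 12.3, 4.23 and 5.33 FPKM. PRIM1 was thus 2.61 and 2.39 times the POLA1 level in Huh-7, and 0.464 and 0.547 of it in PLC/PRF/5. POLE2, a subunit of the leading strand polymerase, was at 4.52, 4.90, 3.96 and 5.10 FPKM. POLE2 and PRIM1 were past 1.2-fold on knockdown, with ratios of 1.29 and 1.26. All 7 genes of this group were higher on knockdown as deposited, against 47.8% of all expressed genes. When the libraries were rescaled to the same sum 6 of 7 were higher, against 42.3%, and RPA3 was lower.

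The regulators of the switch into S phase differed little with either treatment. E2F1, the activator of the set, was at 32.3 (empty vector), 29.7 (overexpression), 14.1 (control) and 14.8 (knockdown) FPKM. E2F2 was at 3.09, 3.29, 2.28 and 2.25 FPKM. CCNE1, a cyclin partner of CDK2, was at 8.14, 8.12, 5.33 and 5.50 FPKM, and CCNE2 at 2.26, 2.21, 1.03 and 0.931. All 4 were lower in both PLC/PRF/5 libraries than in both Huh-7 libraries, against 40.5% of genes expressed in any library. On overexpression 3 of 4 were lower as deposited, against 46.4% of all expressed genes. After rescaling, 2 of 4 (upper quartile) and 1 of 4 (same sum) were lower, so no direction can be given.

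Of the chromatin genes, CHAF1A and CHAF1B are subunits of the factor that places histones behind the fork. CHAF1A was at 21.99 (empty vector), 23.0 (overexpression), 10.4 (control) and 10.8 (knockdown) FPKM. CHAF1B was higher in PLC/PRF/5, at 5.07, 4.89, 7.40 and 8.04 FPKM. The ratio of CHAF1A to CHAF1B was 4.34 and 4.71 in Huh-7, and 1.41 and 1.34 in PLC/PRF/5. UHRF1, which brings DNMT1 to newly copied DNA, was at 17.8, 17.0, 7.72 and 7.07 FPKM, lower in both treated libraries.

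Taken over the 39 genes, Huh-7 cells that overexpressed CCDC137 were near the empty vector level. The median log2 difference was 0.02, against 0.01 over all 12255 expressed genes, and the range ran from -0.50 (TK1) to 0.83 (RRM2). Of the 39 genes 21 (53.8%) were higher, against 53.6% of all expressed genes. With both libraries rescaled to the same sum 26 (66.7%) were higher, against 60.7%. At 1.2-fold 3 genes were higher (RRM2, RFC2 and DUT; 7.69%, against 11.9% of all genes) and 1 was lower (TK1; 2.56%, against 10.3%). MCM2 lay at the threshold, with a log2 difference of -0.263. None passed 2-fold, which 1.07% of expressed genes did upward and 1.09% downward. In 29 of the 39 genes (74.4%) the FPKM of the treated library was within 10% of the control, against 46.6% of all expressed genes. The shares were not matched for expression level, and 32 of the 39 genes were above the median of expressed genes in both Huh-7 libraries.

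Knockdown of CCDC137 in PLC/PRF/5 cells went with slightly higher values in most of the set. The median log2 difference was 0.07, against -0.0079 over all 12300 expressed genes, and the range ran from -0.16 (CDT1) to 0.83 (RRM2). Of the 39 genes 32 (82.1%) were higher, against 47.8% of all expressed genes. With the libraries rescaled to the same sum 30 (76.9%) were higher, against 42.3%. The 7 lower genes (17.9%, against 52.2%) were CDT1, UHRF1, RFC5, CCNE2, ORC1, TYMS and E2F2. At 1.2-fold 4 genes were higher (RRM2, DUT, POLE2 and PRIM1; 10.3%, against 9.33% of all genes) and 0 were lower (against 9.98%). Past 1.2-fold in either direction were 4 of 39 genes (10.3%), against 19.3% of all expressed genes. Within 10% of the control were 27 of 39 genes (69.2%), against 54.4%. These shares were not matched for expression level either. Above the median of expressed genes were 27 (control) and 29 (knockdown) of the 39 genes. None passed 2-fold, which 1.2% of expressed genes did upward and 1.1% downward.

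**Figure D3:**
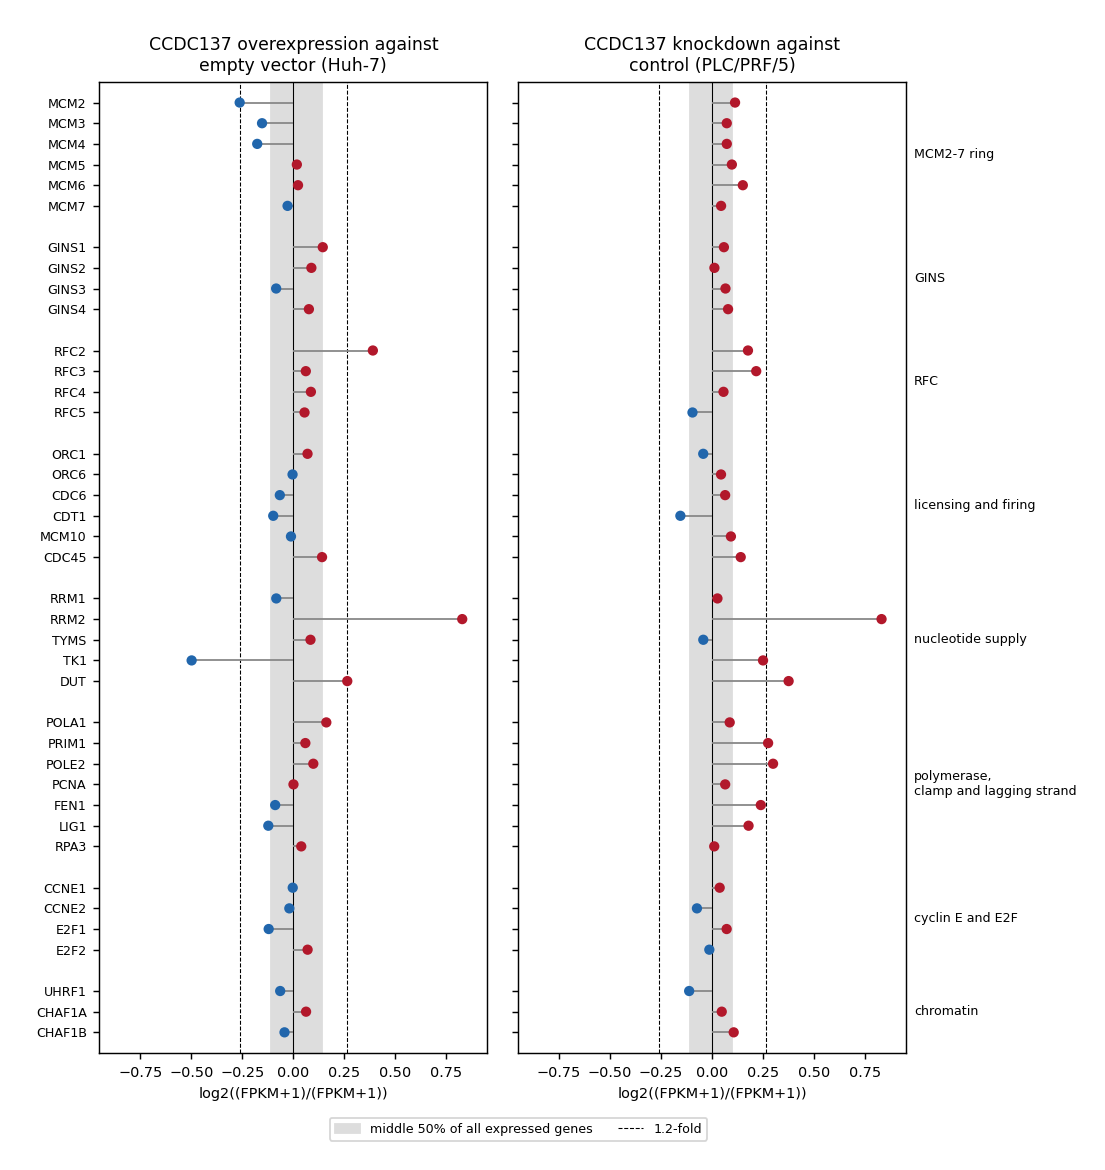
Log2 difference of FPKM with 1 added, treated against control, for the 39 genes on overexpression in Huh-7 (left) and knockdown in PLC/PRF/5 (right), with 1 library on each side of a difference, so no error bars. Red points are higher and blue points lower in the treated library, grey bands hold the middle 50% of all expressed genes and dashed lines mark 1.2-fold: RRM2 stands at 0.83 in both panels, TK1 at -0.50 and 0.25, and 32 of 39 points lie above 0 in the right panel.

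The comparisons share no library, so each gene can be placed by its direction in both. In both treated libraries 17 of the 39 genes (43.6%) were higher, against 25.7% of the 10698 genes expressed in both lines. CCNE2, CDT1 and UHRF1 were lower in both (7.69%, against 25.6%). A further 15 genes (38.5%, against 21.5%) had a lower value with overexpression but a higher one with knockdown, among them MCM2, MCM3, MCM4, MCM7, RRM1, TK1, FEN1, LIG1 and E2F1. E2F2, ORC1, RFC5 and TYMS went the way of CCDC137 itself, higher on overexpression and lower on knockdown (10.3%, against 27.2%). These joint shares rest on the same differences as the single counts above and are not a separate result. No gene of the set passed 1.2-fold in opposite directions, where 3.44% of all genes did, or was that much lower in both, where 1.72% were. Most of these directions rest on small differences. When libraries were rescaled to the same sum, 5 genes changed direction on overexpression (MCM7, ORC6, MCM10, CCNE1 and CCNE2). On knockdown 2 did (GINS2 and RPA3).

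Other replication and G1/S genes, 72 in all, were set beside the 39. Of 68 expressed in Huh-7, 38 (55.9%, against 53.6% of all expressed genes) were higher on overexpression, with a median of 0.04. Of 70 expressed in PLC/PRF/5, 43 (61.4%, against 47.8%) were higher on knockdown, with a median of 0.02. At 1.2-fold on overexpression 3 of the 68 (4.41%, against 11.9% of all genes) were higher and 5 (7.35%, against 10.3%) were lower. The 4 with the largest differences on overexpression were all lower. RECQL4, a helicase of replication initiation, was at 8.15 and 5.49 FPKM, and CDKN2C, an inhibitor of CDK4 and CDK6, at 5.59 and 3.68. TIPIN, of the fork protection complex, was at 9.18 and 6.53 FPKM, and TFDP1, the dimer partner of E2F, at 19.2 and 14.4. On knockdown POLD3, a subunit of the lagging strand polymerase, was lower, at 6.003 and 3.86 FPKM. CDKN2A, the locus of the inhibitor p16, was higher at 6.35 and 8.77, as were the histone chaperone ASF1B at 7.85 and 10.7 and the histone gene activator NPAT at 1.61 and 2.41. Of 26 genes of G2/M and mitosis 13 (50%, against 53.6% of all expressed genes) were higher on overexpression, with a median of 0.0050. On knockdown 21 (80.8%, against 47.8%) were higher, with a median of 0.13. On overexpression 3 of the 26 (11.5%, against 3.22% of all genes) were 1.5-fold or more higher. They were the proliferation marker MKI67 at 25.05 and 49.5 FPKM, the mitotic kinase AURKA at 20.4 and 38.3, and the kinetochore motor CENPE at 2.64 and 4.87. The log2 differences of MKI67 (0.96) and AURKA (0.87) were larger than that of RRM2. At 1.2-fold 4 of the 26 (15.4%, against 11.9% of all genes) were higher and 4 (15.4%, against 10.3%) were lower. The lower ones were KIF20A (-0.31), CENPA (-0.29), PLK1 (-0.28) and AURKB (-0.26). On knockdown none of the 26 passed 1.5-fold. The G2/M genes named here were chosen after their values were seen.

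The control libraries of the lines were then compared, each of which also serves as the control of its treatment. In PLC/PRF/5 control cells 32 of the 39 genes (82.1%) were lower than in Huh-7 empty vector cells, against 48.1% of 13304 expressed genes. The median log2 difference was -0.95, against 0.04 over all expressed genes. The other 7 (17.9%, against 51.9%) were higher. At 1.2-fold 28 genes (71.8%) were lower, against 36.4% of all genes, and 5 (12.8%) were higher, against 39.6%. At 1.5-fold 23 (59.0%) were lower, against 24.1%, and POLA1 alone (2.56%) was higher, against 26.3%. At 2-fold 17 genes (43.6%) were lower, against 13.6% of all genes, and 0 were higher, against 14.6%. MCM2 differed most, at 49.1 and 12.8 FPKM, 3.85 times higher in Huh-7, followed on the log2 scale with 1 FPKM added by PCNA (3.21 times), FEN1 (3.04 times) and GINS1 (3.36 times). The other direction was led by POLA1, which was 2.03 times higher in PLC/PRF/5 and had a log2 difference of 0.88 with 1 FPKM added.

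Between the treated libraries the median log2 difference of the lines was -0.73. In PLC/PRF/5 31 of 39 genes (79.5%) were lower, against 49.8% of all genes, and 8 (20.5%) were higher, against 50.2%. Of the 39, 14 (35.9%) were 2-fold or more lower, against 13.7% of all genes. At 1.5-fold 21 (53.8%) were lower, against 24.9%, and 5 (12.8%) were higher, against 25%. The line difference of TK1 was the least alike in the 2 pairs, at -1.14 between the controls and -0.39 between the treated libraries. For 30 of the 39 genes (76.9%) both Huh-7 libraries lay above both PLC/PRF/5 libraries, against 40.5% of 13857 genes expressed in any library. For 6 genes (15.4%, against 42% of all genes) both Huh-7 libraries lay below, namely CDC6, CHAF1B, DUT, GINS3, LIG1 and POLA1. The libraries of the lines overlapped for POLE2, RFC3 and RFC5.

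By summed FPKM, Huh-7 controls stood 2.57 times above PLC/PRF/5 controls for the polymerase, clamp and lagging strand group, 2.28 times for the MCM2-7 ring, 2.02 for cyclin E and E2F and 2.01 for GINS. The ratio was 1.76 for the chromatin genes, 1.72 for licensing and firing, 1.66 for nucleotide supply and 1.15 for RFC. PCNA and FEN1 held 229.0 of the 268.2 FPKM of the first group in Huh-7 controls, and without them, a choice made after seeing the data, its ratio was 1.24. The order of groups differs by the median log2 difference of their genes, which was -1.22 for the polymerase, clamp and lagging strand group, -1.20 for the ring, -1.01 for chromatin and -0.91 for both nucleotide supply and licensing, against -0.68 for GINS, -0.60 for cyclin E and E2F and -0.23 for RFC. Of the 70 other replication genes expressed in the control libraries 41 (58.6%) were lower in PLC/PRF/5 (median -0.15), against 48.1% of all expressed genes. Of the 26 G2/M genes 18 (69.2%) were lower (median -0.49).

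**Figure D4:**
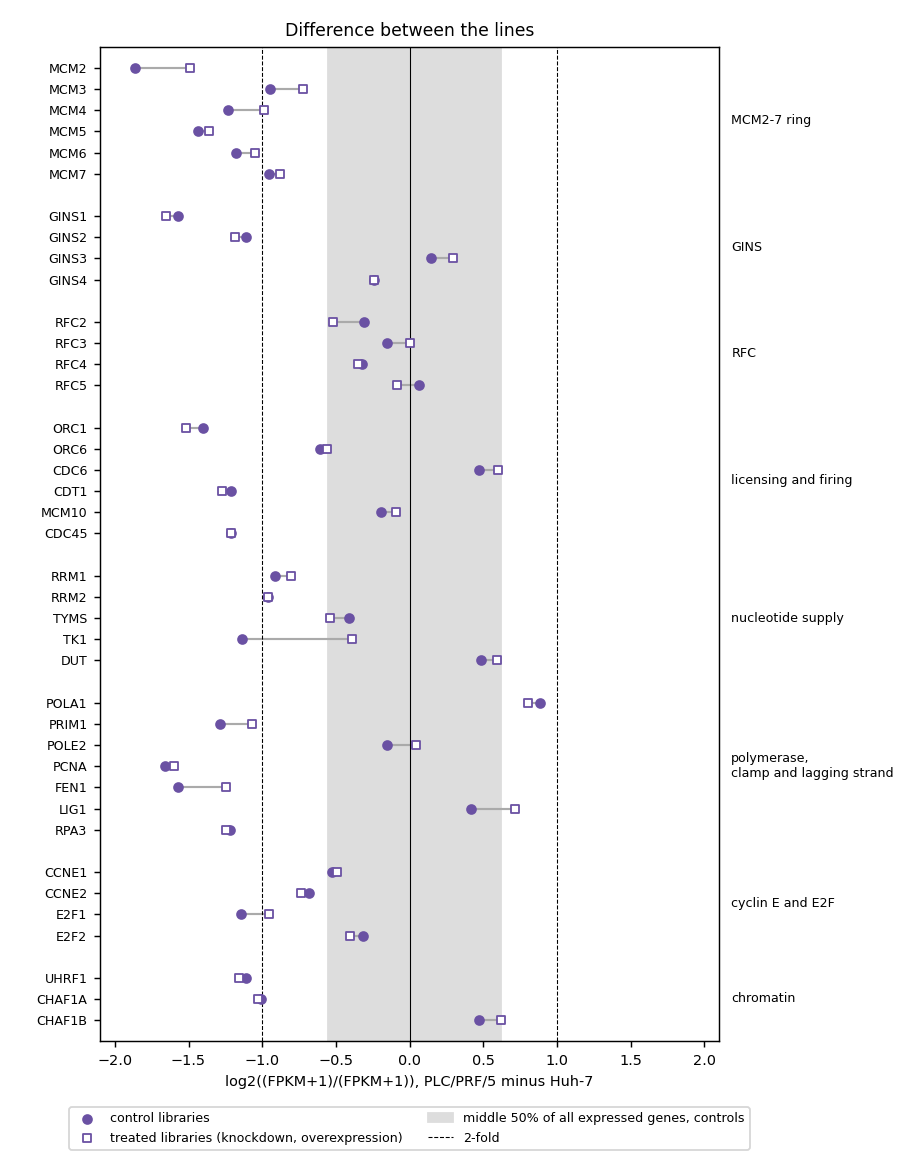
Log2 difference of FPKM with 1 added, PLC/PRF/5 minus Huh-7, for the 39 genes, between control libraries (filled circles) and between treated libraries (open squares), with dashed lines at 2-fold and a grey band for the middle 50% of all expressed genes between the controls. Of the 39 circles 17 lie beyond 2-fold lower in PLC/PRF/5 and 0 beyond 2-fold higher, RFC3 and RFC5 lie near 0, RFC2 and RFC4 are past 1.2-fold lower in PLC/PRF/5, and TK1 has the widest gap between circle and square.

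Some of these levels can hold reads of a neighbour. In the GRCh37 annotation, exons of 3 of the 39 genes overlapped a gene of the same strand at 1 FPKM or more, FEN1 with FADS2, PRIM1 with NACA and CHAF1B with MORC3. FADS2 was at 53.3, 62.7, 3.51 and 2.80 FPKM, higher in Huh-7 like FEN1, and its part in the FEN1 difference was not tested. NACA was level, between 25.01 and 26.99 FPKM in all 4 libraries. MORC3 was at 3.42, 3.81, 4.28 and 5.27 FPKM, higher in PLC/PRF/5 like CHAF1B. A further overlap with an expressed gene of the opposite strand was present for 11 of the 39 genes, such as ENOSF1 for TYMS. WSB2 (24.7, 23.3, 46.9 and 40.6 FPKM) overlapped RFC5. EIF4A2 (between 24.2 and 28.96 FPKM) overlapped RFC4, and INTS8 (between 5.50 and 8.61 FPKM) overlapped CCNE2. Each of WSB2, EIF4A2 and INTS8 was above the member it overlaps in all 4 libraries. NINL overlapped GINS1, at 5.25, 5.42, 1.17 and 1.87 FPKM, and GSE1 overlapped GINS2, at 3.93, 4.21, 2.33 and 2.49. UMAD1 overlapped RPA3, at 5.90, 2.58, 1.47 and 2.41 FPKM. Like the genes they overlap, NINL, GSE1 and UMAD1 were higher in Huh-7, while INTS8 was higher in PLC/PRF/5 where CCNE2 was lower. Whether the values were counted by strand is not stated, and the part of these neighbours was not tested.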

How the data were processed

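Libraries were made from oligo(dT)-selected RNA with a dUTP-marked strand and read in pairs. Tools named in the submitters' processing notes are HISAT2 2.0.4, StringTie 1.3.4d and cutadapt. Build, annotation and strand setting were not given in the sources used here. Gene values were deposited as FPKM, computed by the authors, where 0.0001 stands for 0 and was set to 0. Read depth per library is unknown. The deposited tables also hold the authors' own fold changes and p-values, which were not used.

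Groups were taken from the sample titles. Differences were log2((FPKM + 1)/(FPKM + 1)) in Python 3.11.15 with numpy 2.4.6 and pandas 2.3.3, over genes at 1 FPKM or more in either library. Counts past 1.2, 1.5 and 2-fold were set beside the same counts over all expressed genes. The counting of calls was tested on simulated data. With 1 library per group no test was made. The members and lists were chosen with earlier results of these data known. Named genes were all members, CCDC137 and, of the other replication genes, the 4 with the largest difference in each treatment. Neighbours, G2/M genes and markers named beside a result were chosen after their values were seen. Overlaps came from GENCODE release 44 on GRCh37, and promoters from RefSeq on GRCh38.p14, neither of which need be the build of the files. Alternatives were other pseudocounts, filters and scalings, and the treated libraries for the line difference.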

Additional observations from a re-analysis of the deposited data

How the results depend on the processing

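The median of the 39 genes kept its sign under every alternative filter, pseudocount and scaling in all comparisons, with ranges from 0.0088 to 0.05 on overexpression, from 0.05 to 0.08 on knockdown and from -0.97 to -0.73 between the lines. The value nearest 0 between the lines, -0.73, came from the treated libraries in place of the controls. At 1.2-fold lower on overexpression the count was 2 in place of 1 with a pseudocount of 0.1 or 0.01 FPKM, by the addition of MCM2. RRM2 was past 1.5-fold and short of 2-fold in both treatments under each alternative. Its log2 difference ran from 0.83 to 0.88 on overexpression and from 0.81 to 0.93 on knockdown. PRIM1 was short of 1.2-fold on knockdown when libraries were rescaled to the same sum. POLA1 (higher) and CCNE2 and RRM2 (lower) passed 2-fold between the lines with a pseudocount of 0.1 or 0.01 FPKM. Rescaling moved the median of all expressed genes by less than 0.1. No paired analysis was possible because each group has 1 library. The depth of the libraries is unknown, so low members such as CCNE2, E2F2 and GINS3 are the least certain. The summed ratio of Huh-7 to PLC/PRF/5 controls in the polymerase, clamp and lagging strand group was 2.57, and 1.24 without PCNA and FEN1, an alternative chosen after seeing the data.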
